A study of Homo sapiens with 9 samples.

Results

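The genes described here are 46 genes that are known to be induced by interferon, measured in ALL-SIL cells, an established human T-ALL (T-cell acute lymphoblastic leukemia) cell line, after knockdown of *PHF6*. The members were given as a list of gene symbols, chosen with earlier results of these data known. Each probe of the array whose transcript identifier maps to one of these symbols was taken, and the brightest probe over all arrays stood for its gene. Of the 46 genes, 45 were matched to at least 1 probe, with 54 probes in all, and 44 could be tested, among 14716 genes tested in all. No probe was matched to *IFI27*. The probe of *EPSTI1* was not well above background on any array, and that of *IFI44L* cleared this mark on 3 of them. The other 43 tested genes were well above background on every array.

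There were 3 groups of 3 samples. ALL-SIL cells were electroporated with a control siRNA, with *PHF6* siRNA1 or with *PHF6* siRNA2, and the labels give the same growth conditions for all. Most labels place the harvest at 96 h and the free-text description places it at 72 h. All samples come from 1 cell line, 1 of the *PHF6* reagents was a pool of siRNAs, and the sources used here do not state whether that pool is siRNA1 or siRNA2. RNA of each sample was hybridized to its own one-colour Agilent array. Values are given on a generalized log2 scale, on which a difference is close to a log2 fold change for bright probes and is smaller than it for dim ones. Between 29690 and 33781 probes were well above background per array. All 8 markers of T-lineage leukemia cells that were examined (*TLX1*, *CD3E*, *CD3D*, *CD7*, *CD5*, *CD2*, *LCK* and *PTPRC*) were well above background on all 9 arrays. Defining markers of other blood cells were *NCAM1*, *KLRD1* and *KLRF1* (0 arrays each), *CD163* (1 array), *PAX5* (2 arrays) and *MS4A1* (3 arrays), while *CD79A*, *CD14* and *NKG7* were well above background on all 9.

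Type I interferons bind the receptor chains IFNAR1 and IFNAR2 and type III interferons bind IFNLR1 and IL10RB. The kinases JAK1 and TYK2 then act on STAT proteins, STAT2 among them, which join IRF9 and bind the interferon-stimulated response element (ISRE) in the promoters of antiviral genes. Interferon gamma acts through JAK1 and JAK2 and leads to binding at a different element, called GAS. The induced genes include membrane proteins that hinder virus entry (IFITM), proteins that bind viral RNA (IFIT), synthetases that activate RNase L (OAS), large GTPases (GBP and MX), and the transcription factors of the pathway itself. Some of them, among them *IFITM1* to *IFITM3*, are also expressed in lymphoid cells without added interferon.

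Promoters of the members carry the motif that these transcription factors bind. RefSeq windows of 300 bases (250 before and 50 after the start, build GRCh38.p14) were at hand for 37 members, and 27 of these (73.0%) held the ISRE core on either strand (GAAA, any 2 bases and GAAA again, or TTTC, any 2 bases and TTTC again), against 4.38% of 27305 genes. The GAS core TTCNNNGAA, which is its own reverse complement, was found in 12 of the 37 (32.4%), against 9.38% of genes. A match of letters is a description of the window only. The stretches below show the ISRE letters, in capitals, upstream of members of the families compared here and of *ISG15*, which encodes a ubiquitin-like modifier. Each is 60 bases long and is written 5′ to 3′ on the strand of its gene.
*IFITM1*, chr11:313975-314034, plus strand: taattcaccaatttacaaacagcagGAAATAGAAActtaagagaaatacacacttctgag
*IFITM3*, chr11:320861-320920, minus strand: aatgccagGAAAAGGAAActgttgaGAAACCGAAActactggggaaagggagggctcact
*IFIT1*, chr10:89392495-89392554, plus strand: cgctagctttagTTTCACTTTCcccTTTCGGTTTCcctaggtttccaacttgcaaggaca
*IFIT3*, chr10:89332453-89332512, plus strand: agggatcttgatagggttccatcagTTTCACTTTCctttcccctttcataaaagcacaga
*GBP1*, chr1:89065301-89065360, minus strand: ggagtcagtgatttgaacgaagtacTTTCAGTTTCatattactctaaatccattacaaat
*ISG15*, chr1:1013365-1013424, plus strand: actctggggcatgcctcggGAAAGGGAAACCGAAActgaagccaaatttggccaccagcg
*IFITM3* and *IFIT1* show 2 ISRE cores each in these stretches, and the cores of *ISG15* overlap. *IFITM2*, *IFIT2*, *OAS2*, *OASL*, *GBP2*, *IRF7*, *MX2*, *TRIM22* and *USP18* had no window in the table.

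*PHF6* was lower with both siRNAs. Its probe (A_23_P171385) read 11.06, 11.16 and 10.86 on the control arrays of replicates 1, 2 and 3. It read 9.39, 9.69 and 9.12 with siRNA1 and 9.19, 9.28 and 9.14 with siRNA2, so that all 6 siRNA arrays lay below all 3 control arrays. The log2 fold change of both siRNAs against control was -1.73 (standard error 0.14, limma adjusted p = 0.00238), and blocking on replicate number gave a limma adjusted p of 9.45e-05. Between siRNA2 and siRNA1 *PHF6* differed by -0.20 (95% confidence interval -0.44 to 0.04 with the block, limma adjusted p = 0.574). The replicate number was used as a block in a further fit because samples that share a number deviated together from their group means, and both fits are given below for each gene that either of them called.

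The 3 genes of the IFITM family were the members called lower, and the calls rested on the comparison within replicate numbers. Without the block limma called 0 of the 44 members at an adjusted p under 0.05, where it called 0.00892% of all 33625 probes, and 4 members (*IFITM1*, *IFITM2*, *IFITM3* and *ISG20*) had an unadjusted p under 0.05, against 7.38% of all probes. Blocked on replicate number, the fit called 3 members, *IFITM1*, *IFITM2* and *IFITM3*, all of them lower. It called 2.73% of all probes, 0.851% lower and 1.88% higher. Of all genes tested, each by its brightest probe as for the members, 1.17% were called lower. The list of members was chosen with earlier results of these data known, so these shares are a description and not an independent test. With the block 13 members had an unadjusted p under 0.05, against 21.8% of all probes. The median log2 fold change was -0.09 over the 44 members, with 32 below 0 and 12 above 0, and it was -0.03 over all genes tested, of which 58.1% were below 0.

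**Figure D1:**
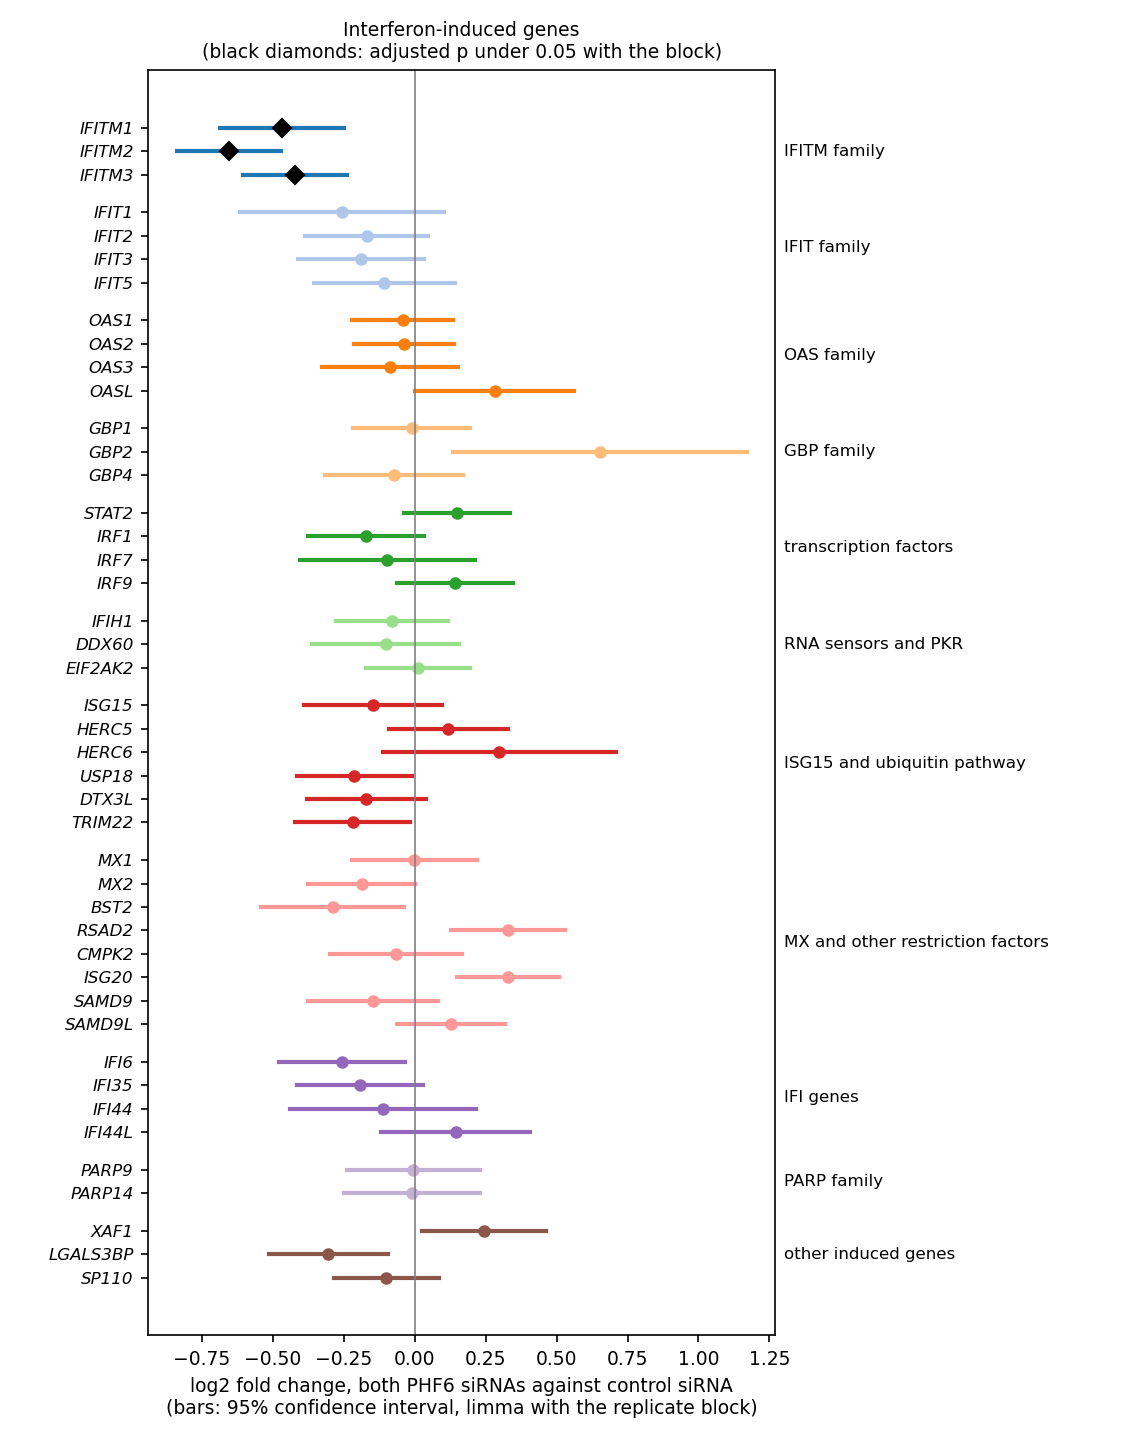
Log2 fold change of both *PHF6* siRNAs against control siRNA for the 44 tested interferon-induced genes (points), with the 95% confidence interval from limma with the replicate block (bars), grouped by family and role and coloured by group. Black diamonds mark the 3 genes with an adjusted p under 0.05 in that fit, *IFITM1* at -0.47, *IFITM2* at -0.66 and *IFITM3* at -0.42, while *GBP2* at 0.65 has the widest interval.

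*IFITM1*, *IFITM2* and *IFITM3* encode small transmembrane proteins that hinder the fusion of viruses with cell membranes, and *IFITM1* is also known as the leukocyte antigen CD225. *IFITM1* (A_23_P72737) read 17.75, 17.91 and 17.76 with control siRNA, 17.28, 17.63 and 17.23 with siRNA1, and 17.36, 17.25 and 17.27 with siRNA2. *IFITM2* (A_24_P287043) read 15.78, 15.67 and 15.58 with control siRNA, 15.26, 15.15 and 14.94 with siRNA1, and 15.15, 14.87 and 14.75 with siRNA2. *IFITM3* (A_23_P87545) read 16.69, 16.54 and 16.46 with control siRNA, 16.11, 16.08 and 16.10 with siRNA1, and 16.27, 16.12 and 16.16 with siRNA2. For each of these genes the 6 siRNA arrays all lay below the 3 control arrays. Among all genes tested 2.61% showed this pattern, and among the members only these 3 did. In RNA from bulk cells, fewer cells of a type and less RNA per cell cannot be told apart.

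**Figure D2:**
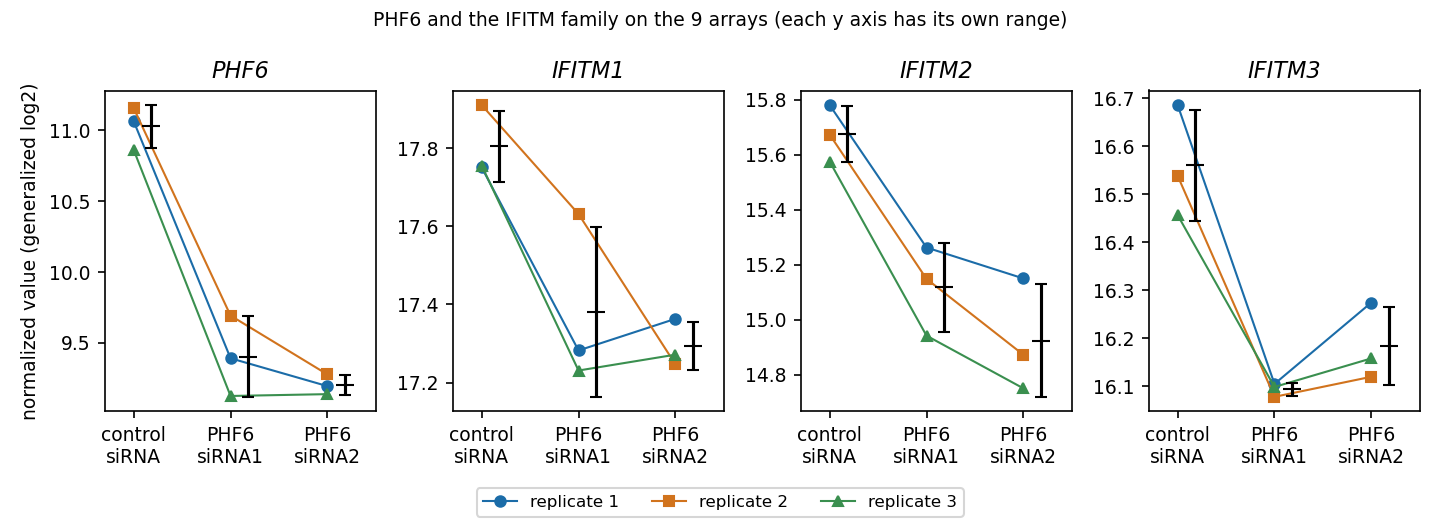
Normalized values (generalized log2) of *PHF6*, *IFITM1*, *IFITM2* and *IFITM3* on the 9 arrays, with lines joining samples of the same replicate number and black bars for the mean ± SD of each group (n = 3). In every panel the 6 siRNA arrays sit below the 3 control arrays, with control means of 11.03, 17.81, 15.68 and 16.56.

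With the block, *IFITM2* fell by 36.5% (log2 fold change -0.66, 95% confidence interval -0.84 to -0.47, limma adjusted p = 0.00916, against 0.361 without the block). *IFITM1* fell by 27.7% (-0.47, -0.69 to -0.25, limma adjusted p = 0.0398, against 0.594 without the block). *IFITM3* fell by 25.3% (-0.42, -0.60 to -0.24, limma adjusted p = 0.0330, against 0.594 without the block). Within replicate numbers the mean difference of both siRNAs from their own control was -0.43, -0.47 and -0.50 for *IFITM1* in replicates 1, 2 and 3. It was -0.57, -0.66 and -0.73 for *IFITM2* and -0.50, -0.44 and -0.33 for *IFITM3*. The differences were thus below 0 on both slides, the first of which held replicates 1 and 2 and the other replicate 3. Group accounted for 79.0%, 85.3% and 90.1% of the spread of *IFITM1*, *IFITM2* and *IFITM3* over the 9 arrays, and replicate number for 8.91%, 13.3% and 6.34%.

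The calls of the family differed in how they bore the loss of an array. *IFITM2* kept its call with the block in 7 of the 9 fits that left out 1 array. It lost it without control replicate 1 (limma adjusted p = 0.0540) and without control replicate 2 (0.0641), and also without all arrays of replicate 1 (0.0808) or of replicate 2 (0.101). *IFITM3* kept its call in 2 of the 9, without control replicate 3 (0.0419) and without siRNA2 replicate 2 (0.0498), and its adjusted p was otherwise up to 0.191. *IFITM1* lost its call whichever array was left out (0.0527 to 0.179), and so did *IFITM1* and *IFITM3* without any 1 replicate number (0.0770 to 0.283). The log2 fold changes in these fits stayed between -0.70 and -0.38. Under all 36 settings tried, each of the 3 genes was below 0.

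The probes of the family were among the brightest of the array, and bright probes as a whole shifted down. The 648 other probes at least as bright as that of *IFITM2* had a median log2 fold change of -0.10, and 81.0% of them were below 0. Of these, 21 (3.24%) were as low as *IFITM3*, and 13 (2.01%) were called lower with the block. With normexp background correction and quantile normalization the median of the bright probes was -0.00. There the log2 fold changes were -0.39 for *IFITM1*, -0.57 for *IFITM2* and -0.35 for *IFITM3*, with adjusted p of 0.0265, 0.00470 and 0.0344 from limma with the block. With VSN on the processed signal *IFITM2* alone remained called (limma adjusted p = 0.0359 with the block), against 0.0914 for *IFITM1* and 0.0556 for *IFITM3*.

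A second probe of *IFITM1* (A_33_P3423941) read 17.33, 16.79 and 16.52 with control siRNA, 16.51, 16.62 and 16.22 with siRNA1, and 16.60, 16.43 and 16.30 with siRNA2. The groups overlapped for it, its log2 fold change was -0.43, and it was not called (limma adjusted p = 0.0748 with the block). Coding sequences of *IFITM1* to *IFITM3* are much alike, and the probe sequences were not used here, so that signal shared between the 3 genes cannot be told apart from the signal of each.

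*IFITM1* to *IFITM3* lie next to each other on chromosome 11, between *IFITM5* and *PKP3* in the order of tested genes in RefSeq, and these neighbours were picked with their values known. *IFITM5*, which encodes a family member known from bone-forming cells, read 7.08, 5.59 and 5.95 with control siRNA, 6.18, 5.20 and 5.34 with siRNA1, and 6.34, 5.28 and 5.07 with siRNA2. These groups overlapped, although each siRNA array was below the control array of its number. The log2 fold change was -0.64 (limma adjusted p = 0.0255 with the block, against 0.747 without it). The call held in 7 of 17 settings with the block (limma adjusted p up to 0.221). Over all settings tried the log2 fold change of *IFITM5* ran from -0.96 to -0.20. Replicate number held 72.8% of its spread and group 23.3%. *PKP3*, which encodes a plakophilin of cell junctions, had a log2 fold change of -0.43 (limma adjusted p = 0.0984 with the block), and -0.67 to -0.16 over all settings. Among the 10 nearest tested genes, 5 on each side, 8 were below 0 and 2 above, with a median of -0.11, and *IFITM5* was the 1 called. Over all genes tested 58.1% were below 0, the median was -0.03, and 1.17% were called lower with the block. Signal near background limits the values of *IFITM5* and *PKP3*.

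IFIT genes did not pass the test in either fit. These 4 genes lie together on chromosome 10 and encode proteins that bind viral RNA. Their log2 fold changes were all below 0, with a median of -0.18. Over all genes tested the median was -0.03, with 58.1% below 0. *IFIT1* (A_23_P52266) read 8.59, 8.80 and 8.74 with control siRNA, 8.50, 8.40 and 8.64 with siRNA1, and 8.54, 7.80 and 8.85 with siRNA2. The groups overlapped, and the siRNA2 arrays alone spanned more than all other arrays. *IFIT2* (A_23_P24004) read 8.92, 8.59 and 8.55, then 8.73, 8.26 and 8.32, then 8.84, 8.26 and 8.69, in the same order. *IFIT3* (A_33_P3283611) read 9.24, 9.31 and 9.29, then 9.11, 8.83 and 9.32, then 9.08, 8.93 and 9.27. *IFIT5* (A_24_P30194) read 9.29, 9.18 and 9.06, then 9.05, 8.59 and 9.10, then 9.42, 8.90 and 9.34. In all 4 genes the siRNA arrays of replicate 2 lay below their own control.

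The log2 fold change was -0.26 for *IFIT1* (95% confidence interval with the block -0.61 to 0.10, limma adjusted p = 0.383 with the block). It was -0.17 for *IFIT2* (-0.39 to 0.05, 0.336), -0.19 for *IFIT3* (-0.41 to 0.03, 0.295) and -0.11 for *IFIT5* (-0.36 to 0.14, 0.619). *IFIT1*, *IFIT2* and *IFIT3* were lower than their own control in 5 of 6 pairs, and *IFIT5* was lower in 3 and higher in 3. The siRNA1 and siRNA2 arrays of a replicate number share their control array, so the 6 pairs are not independent. Among all genes tested 13.8% were lower in 6 of 6 pairs and 7.56% were higher in 6 of 6. The interval of *IFIT1* takes in the values of *IFITM1* and *IFITM3*, and those of the other 3 end above them. The intervals of *IFITM1* (-0.69 to -0.25) and *IFITM3* (-0.60 to -0.24) themselves overlap that of each IFIT gene. Whether the IFIT, OAS or GBP genes differ from the IFITM genes in their response was not tested. A dimmer probe of *IFIT2* (A_24_P304071) gave -0.20 (limma adjusted p = 0.342 with the block).

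**Figure D3:**
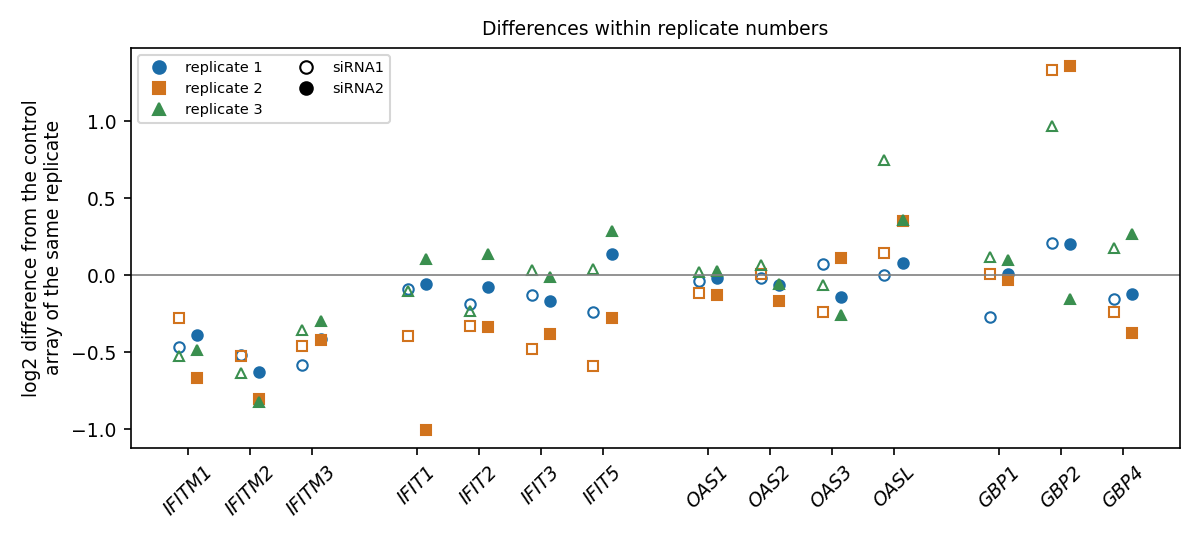
Difference between each siRNA array and the control array that shares its number (log2, y axis) for the 14 genes of the IFITM, IFIT, OAS and GBP families; open symbols are siRNA1, filled symbols siRNA2, and the shape and colour give the replicate number. All IFITM points lie below 0, IFIT points of replicate 2 lie below 0, *OAS1* to *OAS3* points scatter around 0, and *GBP2* points reach above 1.

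OAS genes encode synthetases of 2′-5′ oligoadenylate, which activates RNase L, and *OASL* encodes a related protein without that activity. Their median log2 fold change was -0.04, none was called, and 3 of the 4 lie together on chromosome 12. *OAS1* (A_23_P64828) read 6.16, 6.05 and 6.11 with control siRNA, 6.13, 5.93 and 6.13 with siRNA1, and 6.14, 5.92 and 6.14 with siRNA2. *OAS2* (A_33_P3225522) read 8.66, 8.35 and 9.33, then 8.65, 8.36 and 9.40, then 8.60, 8.18 and 9.28. *OAS3* (A_24_P335305) read 9.22, 8.73 and 9.11, then 9.29, 8.49 and 9.04, then 9.08, 8.85 and 8.85. The groups overlapped in all 3 genes, and replicate number accounted for 83.9%, 98.3% and 75.6% of their spread over the 9 arrays.

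With the block the log2 fold change was -0.04 for *OAS1* (95% confidence interval -0.22 to 0.14), -0.04 for *OAS2* (-0.22 to 0.14) and -0.09 for *OAS3* (-0.33 to 0.15), with adjusted p of 0.798, 0.818 and 0.680 from limma. The interval of *OAS1* and of *OAS2* ends above the value of each IFITM gene, which holds for these probes only. The probe of *OAS1* is dim, with values from 5.92 to 6.16, and differences of dim probes come out smaller on this scale. Other probes of *OAS2* gave lower values, -0.36 (A_23_P204087, limma adjusted p = 0.0786 with the block) and -0.31 (A_33_P3225512, adjusted p = 0.0742). For both of them each siRNA array was below the control array of its number. *OASL* (A_23_P139786) went the other way and read 5.58, 5.58 and 5.69 with control siRNA, 5.58, 5.72 and 6.44 with siRNA1, and 5.66, 5.93 and 6.05 with siRNA2. It was above its own control in 6 of 6 pairs, with a log2 fold change of 0.28 (95% confidence interval 0.00 to 0.56) and an adjusted p of 0.227 from limma with the block.

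GBP genes encode guanylate-binding proteins, large GTPases that interferon gamma induces strongly and that act on vacuoles holding microbes. *GBP1* (A_23_P62890) read 8.57, 8.87 and 9.15 with control siRNA, 8.30, 8.88 and 9.27 with siRNA1, and 8.57, 8.84 and 9.25 with siRNA2. *GBP4* (A_24_P45446) read 10.33, 10.38 and 10.43, then 10.18, 10.14 and 10.61, then 10.21, 10.01 and 10.70. *GBP2* (A_23_P85693) read 6.06, 7.36 and 8.36, then 6.27, 8.69 and 9.32, then 6.26, 8.72 and 8.20. The replicates of *GBP2* were thus further apart than the groups, and replicate number accounted for 83.9% of its spread and group for 8.61%.

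For *GBP2* the log2 fold change of both siRNAs was 0.65, which was the largest of the 44 members in size after that of *IFITM2*. Its standard error was 0.73 without the block and 0.23 with it, and it was not called in either fit (adjusted p = 0.884 and 0.142 from limma). By replicate number the mean difference from the control array was 0.21, 1.34 and 0.41. In replicate 1 its probe was dim, with values from 6.06 to 6.27, and differences of dim probes come out smaller on this scale. *GBP1* had a log2 fold change of -0.01 (95% confidence interval with the block -0.22 to 0.20) and *GBP4* one of -0.07 (-0.32 to 0.17), with adjusted p of 0.960 and 0.736 from limma with the block. The interferon-induced relatives *GBP3* and *GBP5* had log2 fold changes of -0.00 and -0.14 (adjusted p = 0.992 and 0.524).

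**Figure D4:**
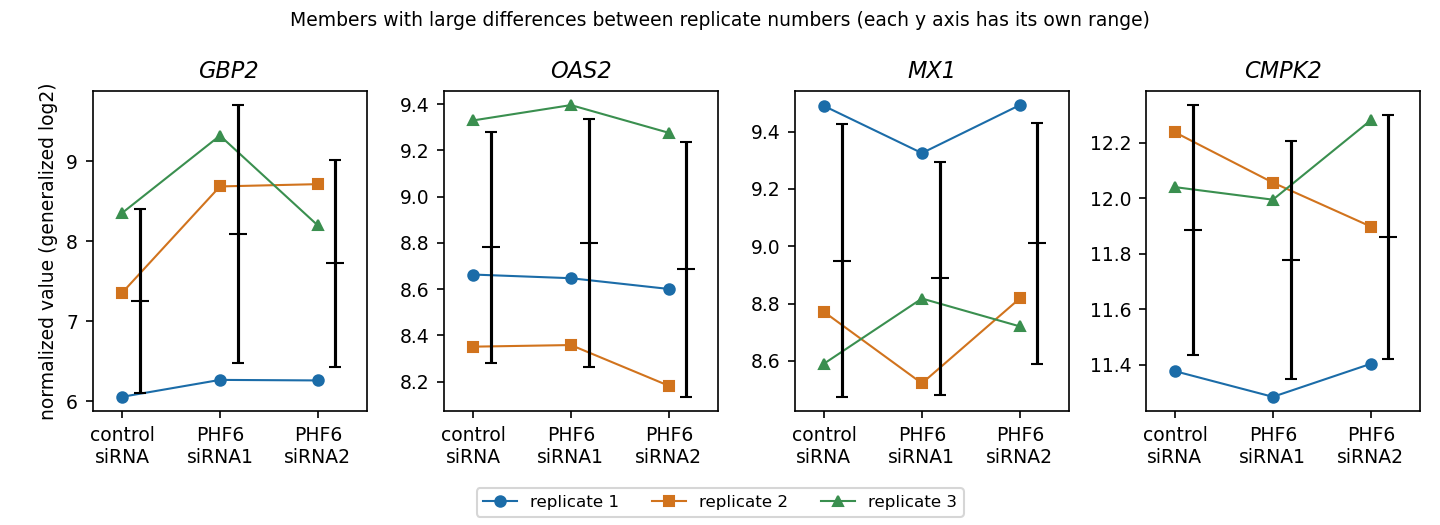
Normalized values (generalized log2) of *GBP2*, *OAS2*, *MX1* and *CMPK2* on the 9 arrays, with lines joining samples of the same replicate number and black bars for the mean ± SD of each group (n = 3). In every group *MX1* is highest and *GBP2* and *CMPK2* are lowest in replicate 1, and replicate number holds 83.9%, 98.3%, 91.8% and 90.4% of the spread.

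Replicate number held a larger part of the spread than group in 29 of the 44 members, among them all tested IFIT, OAS and GBP genes. *MX1* (A_23_P17663), which encodes a GTPase that traps viral ribonucleoproteins, read 9.49, 8.77 and 8.59 with control siRNA, 9.32, 8.52 and 8.82 with siRNA1, and 9.49, 8.82 and 8.72 with siRNA2. Its log2 fold change was -0.00 (95% confidence interval with the block -0.22 to 0.22). *CMPK2* (A_33_P3401826), a nucleotide kinase gene beside *RSAD2*, read 11.38, 12.24 and 12.04, then 11.29, 12.06 and 12.00, then 11.40, 11.90 and 12.28. *MX1* was highest in replicate 1 in every group, where *GBP2* and *CMPK2* were lowest. Over all genes tested the median share of the spread was 51.8% for replicate number and 19.3% for group, against 44.1% and 26.3% over the members. *MX1* and *CMPK2* were chosen after their values were seen.

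Of the other members, 5 had the largest log2 fold changes outside these families, and none was called with the block in these values. *RSAD2* (A_24_P28722), which encodes viperin, read 10.23, 10.44 and 9.83 with control siRNA, 10.42, 10.53 and 10.28 with siRNA1, and 10.55, 10.85 and 10.33 with siRNA2. *ISG20* (A_23_P32404), an exonuclease gene, read 9.55, 9.17 and 9.24, then 9.80, 9.45 and 9.65, then 9.83, 9.54 and 9.62. Both were above their own control in 6 of 6 pairs, although the groups overlapped. The log2 fold change was 0.33 for *RSAD2* (95% confidence interval with the block 0.13 to 0.53, limma adjusted p = 0.0789 with the block) and 0.33 for *ISG20* (0.15 to 0.51, 0.0611). With normexp and quantile normalization and the block both were called (adjusted p = 0.0301 and 0.0226 from limma).

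*LGALS3BP* (A_23_P15357), which encodes a secreted galectin-binding protein, read 11.65, 11.39 and 11.78 with control siRNA, 11.40, 11.29 and 11.53 with siRNA1, and 11.00, 11.15 and 11.44 with siRNA2. *BST2* (A_23_P39465), the gene of tetherin, which holds budding virus on the cell surface, read 12.54, 12.85 and 12.38, then 11.94, 12.44 and 12.31, then 12.34, 12.36 and 12.40. *HERC6* (A_33_P3315779), a gene of the HERC ubiquitin ligase family, read 5.45, 5.48 and 5.63, then 5.42, 5.84 and 6.51, then 5.64, 6.01 and 5.50. *LGALS3BP* was below its own control in 6 of 6 pairs and *BST2* in 5, whereas *HERC6* was above it in 4, and the groups overlapped for each. Their log2 fold changes were -0.31, -0.29 and 0.30, with adjusted p of 0.102, 0.177 and 0.375 from limma with the block. A second probe of *HERC6* (A_23_P250358) gave -0.02, and second probes of *OAS3*, *EIF2AK2* and *SAMD9L* gave 0.05, 0.03 and 0.11.

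By role, the transcription factors of the pathway did not move together. *STAT2* and *IRF9*, parts of the complex that binds the ISRE, had log2 fold changes of 0.15 and 0.14, and *IRF1* and *IRF7* had -0.17 and -0.10. None of the 4 was called, and with the block the intervals were -0.04 to 0.34, -0.06 to 0.35, -0.38 to 0.03 and -0.40 to 0.21 in that order. *STAT2* was above its own control in 6 of 6 pairs. The RNA sensor genes *IFIH1* (MDA5) and *DDX60* had -0.08 and -0.10, and *EIF2AK2* (PKR, a kinase that stops translation when it binds double-stranded RNA) had 0.01, with values between 12.18 and 12.35 on all 9 arrays.

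Of the ISG15 and ubiquitin genes, 4 of 6 were below 0, against 58.1% of all genes tested, and none was called. *ISG15* (A_23_P819) read 12.64, 12.77 and 12.52 with control siRNA, 12.29, 12.48 and 12.62 with siRNA1, and 12.48, 12.38 and 12.73 with siRNA2, so that the groups overlapped. It had a log2 fold change of -0.15 (95% confidence interval with the block -0.39 to 0.09). *USP18*, which removes ISG15 from proteins, had -0.21, *TRIM22* had -0.22 and *DTX3L* had -0.17, while the ligase gene *HERC5* had 0.12. *TRIM22* was below its own control in 6 of 6 pairs (limma adjusted p = 0.201 with the block).

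Among the restriction factors, *MX2* was below its own control in 6 of 6 pairs with a log2 fold change of -0.19 (limma adjusted p = 0.232 with the block), *SAMD9* had -0.15 and *SAMD9L* had 0.13. The remaining genes were *IFI6* at -0.26, *IFI35* at -0.19, *IFI44* at -0.11, *IFI44L* at 0.14, *SP110* at -0.10, *PARP9* and *PARP14* at -0.00 and -0.01, and *XAF1* at 0.24. *IFI6* was below its own control in 6 of 6 pairs (limma adjusted p = 0.173 with the block). *XAF1* (A_24_P557479) was the 1 member whose 6 siRNA arrays, at 9.64 to 9.99, all lay above its 3 control arrays, at 9.50 to 9.62, a pattern seen in 1.15% of all genes, and it was not called (limma adjusted p = 0.185 with the block). The groups overlapped for its second probe (A_33_P3258346), which gave 0.17 (limma adjusted p = 0.440 with the block). Over the whole list, 7 members were lower in 6 of 6 pairs and 5 were higher in 6 of 6, which is 15.9% and 11.4% of the 44, against 13.8% and 7.56% of all genes. Members given values outside the 4 families and the 5 with the largest changes were chosen after their values were seen.

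Members with and without the ISRE letters in their promoter window were set side by side. The 25 tested members with the motif had a median log2 fold change of -0.10, with 20 below 0, and the 10 without it had a median of 0.04, with 5 below 0. Over all genes tested the median was -0.03, with 58.1% below 0. Of the IFITM genes, *IFITM1* and *IFITM3* were among the 25, and *IFITM2* had no window. Many members that carry the motif, such as *MX1*, *EIF2AK2* and *GBP1*, had log2 fold changes near 0. No test was made of this difference.

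Each siRNA was also compared with control on its own. With the block limma called 1 member for siRNA1, where 0.919% of all probes were called, and 1 for siRNA2, where 1.59% were, and both times it was *IFITM2*. *IFITM2* had a log2 fold change of -0.56 with siRNA1 (limma adjusted p = 0.0394 with the block) and of -0.75 with siRNA2 (0.0114). *IFITM1* had -0.42 and -0.51 (adjusted p = 0.0972 and 0.0575), and *IFITM3* had -0.47 and -0.38 (0.0567 and 0.0804). Without the block limma called 0 members for either siRNA, where it called 0.00892% of all probes for siRNA1 and 0.0119% for siRNA2. There 4 members had an unadjusted p under 0.05 for siRNA1 and 4 for siRNA2, against 5.91% and 5.9% of all probes. These comparisons share their control arrays.

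Between siRNA2 and siRNA1 limma called 0 members in either fit, where 0.0387% of all probes were called with the block and 0% without it. The unadjusted p was under 0.05 for 2 members without the block and for 5 with it, against 2.5% and 9.65% of all probes. With the block, the difference of siRNA2 from siRNA1 was -0.09 for *IFITM1* (95% confidence interval -0.34 to 0.16), -0.19 for *IFITM2* (-0.41 to 0.02) and 0.09 for *IFITM3* (-0.12 to 0.30). For *IFIT5* it was 0.31 (0.02 to 0.60, limma adjusted p = 0.493 with the block) and for *GBP2* -0.37 (-0.96 to 0.23). Over the 44 members the median log2 fold change was -0.17 with siRNA1 and -0.02 with siRNA2, and over all genes it was -0.05 and -0.02.

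Interferon genes themselves were mostly not well above background. *IFNA2*, *IFNB1*, *IFNG*, *IFNK* and *IFNW1* were so on 0 arrays and *IFNE* and *IFNL3* on 1, and no probe was matched to *IFNA1* or *IFNA5*. The type III interferon genes *IFNL1* and *IFNL2* were well above background on all 9 arrays. *IFNL1* (A_23_P337800) read 9.90, 10.64 and 10.23 with control siRNA, 9.48, 10.65 and 10.21 with siRNA1, and 9.40, 10.45 and 10.07 with siRNA2, with replicate number holding 88.9% of its spread. Its log2 fold change was -0.21 (limma adjusted p = 0.232 with the block), and that of *IFNL2* was -0.01. *CXCL10*, a chemokine gene that interferon gamma induces, was not well above background on any array.

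None of the 6 receptor genes was called, nor any of the 9 genes of kinases and transcription factors. *IFNAR1* and *IFNAR2* had log2 fold changes of 0.02 and -0.26, and *JAK2* had 0.35 (adjusted p = 0.898, 0.306 and 0.0587 from limma with the block). The inhibitors of the pathway, *SOCS1*, *SOCS3*, *PIAS1*, *PTPN2* and *PTPN6*, were all below 0 with values from -0.41 to -0.01, and none was called. Of the 14 tested sensor and adaptor genes 12 were below 0 and none was called. Beside these counts, 58.1% of all genes tested were below 0.

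Further interferon-induced genes outside the 46 held 3 calls with the block, all lower, among 19 tested of 20. With the block 0.851% of all probes and 1.17% of all genes tested were called lower. This list was chosen with earlier results of these data known. *LY6E* (A_24_P317762), which encodes a surface protein that hinders virus entry, read 11.22, 10.67 and 11.12 with control siRNA, 10.79, 10.13 and 10.38 with siRNA1, and 10.16, 9.56 and 9.89 with siRNA2. It was below its own control in 6 of 6 pairs, while the siRNA1 and control groups overlapped. With the block it fell by 44.7% (log2 fold change -0.86, 95% confidence interval -1.05 to -0.67, limma adjusted p = 0.00359, against 0.486 without the block). Its call held in 9 of 9 fits that left out 1 array, and it was lost without the 3 arrays of replicate 2 (limma adjusted p = 0.0910 with the block).

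*APOBEC3G* (A_23_P143713), a cytidine deaminase gene, read 10.98, 10.70 and 10.41 with control siRNA, 10.63, 9.84 and 9.68 with siRNA1, and 10.68, 10.00 and 9.90 with siRNA2. *IFI30* (A_23_P153745), which encodes a lysosomal thiol reductase used in antigen processing, read 12.53, 11.85 and 11.99, then 12.14, 11.32 and 11.72, then 12.06, 11.11 and 11.63. The groups overlapped in both genes, which were below their own control in 6 of 6 pairs. With the block *APOBEC3G* had a log2 fold change of -0.57 (limma adjusted p = 0.0244, against 0.658 without the block) and *IFI30* had -0.46 (0.0327 against 0.728). Each lost its call in 6 of 9 fits that left out 1 array (adjusted p up to 0.113 for *APOBEC3G* and 0.163 for *IFI30*), and without any 1 replicate number.

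Markers of lymphoid cells moved as well. *CD7*, an early T-cell surface marker, read 13.46, 13.11 and 13.32 with control siRNA, 12.90, 12.30 and 12.33 with siRNA1, and 12.91, 12.55 and 12.26 with siRNA2 (log2 fold change -0.75, limma adjusted p = 0.0133 with the block, against 0.576 without it). *NKG7*, a gene of cytotoxic granules, had -0.43 (limma adjusted p = 0.0315 with the block, against 0.621 without it) with all siRNA arrays below the control arrays. Of 17 settings with the block *CD7* was called in 13 (adjusted p up to 0.107) and *NKG7* in 4 (up to 0.229). The other 3 of the 4 natural killer cell markers were well above background on 0 arrays. The other 7 markers of T-lineage leukemia cells were not called, nor were the 2 tested of monocytes and macrophages, and whether *CD7* and *NKG7* have a part in the result for the IFITM genes was not tested.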

How the data were processed

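The samples were 9 ALL-SIL cultures, 3 per group (control siRNA, *PHF6* siRNA1 and *PHF6* siRNA2), grouped and numbered by their labels, which the study describes as independent. The authors deposited for each one-colour Agilent array spot intensity values from Agilent Feature Extraction (version 9.1 in the submitters' processing notes, 10.5.1.1 in the file header), with flags scored 0 or 1 for spots well above background, outliers and saturated spots. They also deposited a table of log2 values of the same arrays, normalized with VSN, which was used as an alternative. How these steps could move a value is given with the alternatives.

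The model of VSN (an affine transformation and the inverse hyperbolic sine, generalized log2) was fitted by code written here to median spot intensities, with no background subtracted, by least trimmed squares (quantile 0.9, 7 rounds). Values correlated with the deposited table across probes at r = 0.994 to 0.999 per array. Outlier spots were left out and 0 were saturated. Tests covered the 33625 of 57176 probes that were well above background on 3 or more arrays. Symbols came from unversioned RefSeq accessions, matched for 25729 probes; since the arrays carry hg19 annotation and RefSeq is GRCh38.p14, RefSeq gave names, neighbour order and promoters only. Arrays have no depth, and their number limits the precision.

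The fits used limma 3.58.1 and statmod 1.5.0 in R 4.3.3, a spread estimated over all 3 groups, Benjamini-Hochberg adjustment over all tested probes and a threshold of 0.05. Control was compared with both siRNAs together and with each alone, and siRNA2 with siRNA1. The scripts were tested on simulated data. Whether replicate numbers from the labels pair the samples was checked by correlating deviations from group means. In the 9 same-number pairs r was 0.31 to 0.75 (median 0.60), so the replicate number was also fitted as a block. In the 18 other pairs r was -0.57 to 0.13. Deviations from a group mean cancel within the group, so these values are tied to those of the same-number pairs. Each named family gene, each called gene, the 5 other members with the largest change and each called gene of the pathway lists are given with values. Further genes are said to be chosen later. The members and the lists of pathway and marker genes were chosen with earlier results of these data known. The alternatives were VSN on the processed signal, the 75th percentile, normexp (offset 50) with quantile normalization, the deposited table, testing all probes or those well above background on all 9 arrays, the replicate number or slide as a block, a trended robust prior, averaging the probes of a gene, and leaving out arrays or replicate numbers. Some genes of these lists are not reported here.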

Additional observations from a re-analysis of the deposited data

How the results depend on the processing

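Besides the fit without a block, 35 settings were tried, and combinations of the replicate block with another normalization or with 1 array left out were chosen after seeing the data. Members called for both siRNAs numbered 0 in every fit without the replicate block. The fits with the replicate block called 3 members, and the block under VSN of the processed signal called 1, with the 75th percentile 1, with normexp and quantile normalization 5 and with the values of the authors 3. In the same order the block called 1, 0, 0, 1 and 2 members for siRNA1 and 1, 1, 1, 4 and 1 for siRNA2. Under VSN of the median spot intensities the block changed the calls of *IFITM1*, *IFITM2*, *IFITM3*, *LY6E*, *APOBEC3G* and *IFI30*. Outside the interferon lists it changed those of *CD7*, *NKG7* and the neighbour *IFITM5*, and there it changed no other call among the genes described by name. Under normexp and quantile normalization *RSAD2* and *ISG20* were called with the block and not without it. Over all 33625 probes the calls numbered 3 without the block and 918 with it, and with the block 39 without the arrays of replicate 1, 5 without those of replicate 2 and 683 without those of replicate 3. Other normalizations with the block gave 165 (VSN of the processed signal), 298 (75th percentile), 1284 (normexp and quantile) and 868 (values of the authors), and the slide as a block gave 17. With arrays or replicate numbers left out, called members numbered 0 to 2 for both siRNAs, 0 to 1 for siRNA1 and 0 to 1 for siRNA2.

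The median log2 fold change of the IFITM family, -0.47, was -0.55 under VSN of the processed signal, -0.50 with the 75th percentile and -0.39 with normexp and quantile normalization, each with and without the block, and -0.45 with the probes of a gene averaged. The OAS median, -0.04, was -0.10 under VSN of the processed signal in both fits. With arrays or replicate numbers left out the median ranged from -0.53 to -0.41 for IFITM, from -0.27 to -0.05 for IFIT, from -0.15 to 0.10 for OAS, from -0.12 to 0.13 for GBP and from -0.13 to -0.01 for all members. *PHF6* passed the threshold in all settings but VSN of the processed signal (log2 fold change -1.83, limma adjusted p = 0.0591), and lay between -1.81 and -1.66 with arrays left out. Values near 0 changed sign only when arrays were left out, and then ranged from -0.16 to 0.13 for *GBP1*, from -0.22 to 0.043 for *GBP4*, from -0.24 to 0.056 for *IFIT5*, from -0.25 to 0.24 for *OAS2* and from -0.23 to 0.025 for *OAS3*. The cause was not tested. Signal near background limits *IFI44L*, *OAS1*, *OASL* and *HERC6*, *GBP2* in replicate 1, and the neighbours *IFITM5* and *PKP3*. No statement is made on *IFI27* and *EPSTI1*.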
